A study of Mus musculus with 16 samples.

Results

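Whole hearts of 4 male mice of 2 months with a mineralocorticoid receptor gene deleted in cardiomyocytes (cardioMRKO) were compared with hearts of 4 male control littermates of the same age (MRflox), across 20056 genes. These are the 8 arrays labelled 2 months of the 16 arrays in the study; the other 8 are cardioMRKO and MRflox hearts of 1 month, 4 of each. All mice were on a C57BL/6 background and all carried the floxed allele of Nr3c2, the gene of the receptor. The cardioMRKO mice also carried a Cre transgene driven in cardiomyocytes by the αMHC promoter, whereas the MRflox mice had no Cre. The design therefore does not separate loss of the receptor from presence of Cre. RNA came from the whole heart, so fibroblasts, endothelial cells and leukocytes, which keep the gene, contributed to every value, and fewer cells of a type and less RNA per cell cannot be told apart.

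The mineralocorticoid receptor is a nuclear receptor that binds aldosterone and the glucocorticoids corticosterone and cortisol, and regulates transcription at DNA elements that it shares with the glucocorticoid receptor. In the kidney it controls sodium retention. Cardiomyocytes contain little of the enzyme that inactivates glucocorticoids, so that in these cells the receptor is thought to be occupied mostly by glucocorticoids, and drugs that block it are used in heart failure.

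Every heart gave 1 Agilent array, read in a single colour. A level below is the log2 of the processed signal minus the log2 of the 75th percentile of that array, and a difference is the cardioMRKO mean minus the MRflox mean of such levels, so that a difference of 1 is a factor of 2. Levels of different probes are not comparable with each other. On the 8 arrays 63.1% to 72.3% of the spots were well above background and the 75th percentile was 527 to 1092 intensity units; no spot was saturated. The first principal component of the 8 arrays held 45.8% of the variance and was carried by MRflox replicate 4 (loading 0.926), and the second held 24.7% and was carried by cardioMRKO replicate 3 (0.856). These 2 arrays also had the lowest spike-in signals, −0.81 and −0.55 (log2) from the mean over all arrays. The 4 arrays of a group shared 1 slide and each group had its own slide, so slide and genotype cannot be told apart.

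The targeted gene was examined first. Nr3c2 stood at −3.72, −3.90, −3.76 and −3.44 in MRflox and at −3.90, −4.05, −4.44 and −4.13 in cardioMRKO. All 4 cardioMRKO arrays lay below all 4 MRflox arrays, by a mean of 0.42 (SE 0.15), although the highest cardioMRKO array and the lowest MRflox array both read −3.90. The exact permutation test gave p = 0.0286, the smallest that 4 against 4 arrays allow, and over all genes the difference did not pass (limma adjusted p = 0.129, and 0.306 with the 8 arrays alone). The other 2 probes of Nr3c2 were well above background on no array of 2 months. No source used here gives the position of the probe relative to the floxed part. For Nr3c1, which encodes the glucocorticoid receptor, the level stood at 2.45 ± 0.06 (SD, n = 4) in MRflox and 2.32 ± 0.20 in cardioMRKO, and the groups overlapped (adjusted p = 0.529). Its probes did not point one way: the probe used gave −0.13 and the other 3 gave 0.30, 0.23 and 0.40.

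The comparison was fitted in 2 ways across all genes. The 16-array fit takes 1 spread per gene from all 4 groups, and the 8-array fit takes it from the 2-month arrays alone. The choice matters because the 2-month arrays varied more: the median SD of a gene was 0.257 in MRflox and 0.256 in cardioMRKO at 2 months, against 0.171 and 0.135 at 1 month. At a limma adjusted p under 0.05, the 16-array fit called 716 of 20056 genes (3.57%), 314 higher (1.57%) and 402 lower (2.0%) in cardioMRKO. The 8-array fit called 96 genes (0.479%), 73 higher (0.364%) and 23 lower (0.115%). Both fits called the same 90 genes (0.449%), 70 higher (0.349%) and 20 lower (0.0997%), and these are described first. Leaving out 1 of the 8 arrays moved the count of the 16-array fit to between 309 (without MRflox replicate 1) and 880 (without cardioMRKO replicate 1). Without an adjustment 3783 genes (18.9%) had a p under 0.05, 1004 higher (5.01%) and 2779 lower (13.9%). Over all genes the median difference was −0.08, with 38.2% above 0 and 61.8% below. The groups did not overlap for 2018 genes (10.1%), 577 higher (2.88%) and 1441 lower (7.18%). Of the 402 genes called lower 73.1% had a RefSeq symbol, of the 314 called higher 39.5%, and the genes without a symbol were counted but are not named.

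**Figure D1:**
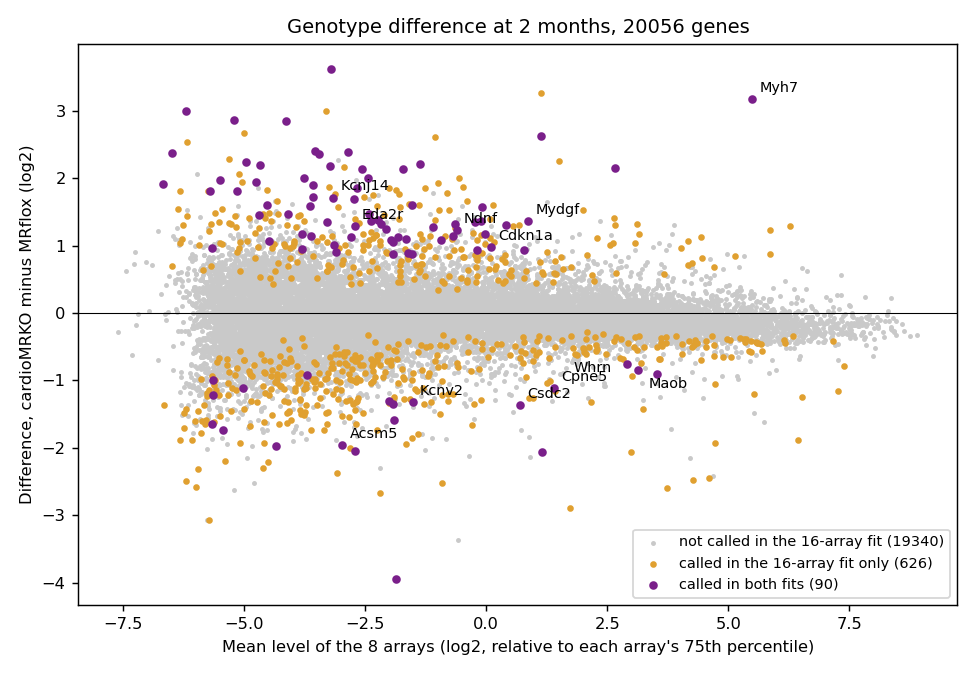
Difference between cardioMRKO and MRflox at 2 months (vertical axis, log2) against the mean level of the 8 arrays (horizontal axis, log2 relative to the 75th percentile of each array), 1 point per gene. Grey genes were not called, orange genes were called in the 16-array fit only and the 90 purple genes in both fits; Myh7, at 3.16, lies far from the other named genes.

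Myh7, the slow β-myosin heavy chain that the mouse ventricle makes before birth, was the named gene with the largest rise. Its level was 4.06, 4.205, 3.57 and 3.80 in MRflox and 7.08, 7.33, 6.96 and 6.91 in cardioMRKO. The lowest cardioMRKO heart was far above the highest MRflox heart, and the difference was 3.16 (SE 0.15), or 8.97-fold (adjusted p = 6.46e-08, and 0.00105 with the 8 arrays alone). Its second probe gave 3.13. In the separate arrays of 1 month the difference was 3.42, and the 2 ages did not differ detectably in this respect (difference −0.25, adjusted p = 0.727). The 250 bases before the start of the gene in RefSeq, on the minus strand of GRCm38.p6 at chr14:54994627-54994876, are shown because the gene showed the largest rise among the named genes and because corticosteroid receptors bind paired copies of a hexamer half-site, AGAACA. It was searched on both strands, and a match on the opposite strand therefore has the letters TGTTCT. Matches would be in capitals, and this stretch and that of the gene's other transcript held none.
Myh7: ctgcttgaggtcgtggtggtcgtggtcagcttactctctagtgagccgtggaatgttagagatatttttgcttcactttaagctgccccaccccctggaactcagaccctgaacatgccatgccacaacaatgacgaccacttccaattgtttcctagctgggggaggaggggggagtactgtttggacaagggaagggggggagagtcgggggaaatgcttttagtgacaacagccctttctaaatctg

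The half-site was also counted on either strand over whole windows, which run longer than the 250 bases shown. For the genes called in both fits it was found in 2 of the 35 windows (5.71%), those of Zfp946 and 1 clone-named gene. It was found in 13.5% of the 15084 windows of all genes tested and in 6233 of all 32851 windows in RefSeq. Among genes called in the 16-array fit it lay in 11.7% of the windows of those called higher and in 15.4% of those called lower. The pair of half-sites spaced by 3 bases lay in 3 of all windows and in none of a called gene. These matches describe letters in a window and are no evidence of binding.

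Other genes called higher in both fits encode channel, signalling and cell cycle proteins. Kcnj14, an inwardly rectifying potassium channel, read −3.49, −4.07, −4.32 and −4.19 in MRflox and −2.71, −2.33, −1.86 and −2.32 in cardioMRKO. The groups were clearly apart, by 1.71 (SE 0.19, adjusted p = 0.000319). Ndnf, a secreted neurotrophic and vascular factor, read −1.30, −1.27, −1.33 and −0.996 in MRflox and −0.03, −0.10, 0.06 and 0.11 in cardioMRKO, and its 4 cardioMRKO hearts were tightly grouped. It was 1.23 higher (SE 0.14, adjusted p = 0.000353), and 1.05 higher by its second probe. Slc51a, a subunit of a transporter of bile acids and steroids, lay between −3.81 and −3.36 in MRflox and between −2.73 and −2.55 in cardioMRKO, 1.00 higher (SE 0.13, adjusted p = 0.00132).

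Eda2r and Cdkn1a are both known targets of the transcription factor p53. Eda2r, a receptor of the tumour necrosis factor receptor family, read −3.28, −3.29, −3.56 and −3.31 in MRflox and −2.001, −2.04, −1.69 and −2.55 in cardioMRKO. It was 1.29 higher (SE 0.19, adjusted p = 0.00226), while its dimmer second probe gave 0.39 and did not pass. Cdkn1a, the cyclin-dependent kinase inhibitor p21, read −0.11, −0.33, −0.46 and −0.65 in MRflox and 0.76, 0.39, 0.70 and 0.53 in cardioMRKO. The groups did not overlap and the difference was 0.98 (SE 0.24, adjusted p = 0.0386, and 0.0442 with the 8 arrays alone), but the call was lost on leaving out any 1 of the 8 arrays.

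Mydgf, which encodes a secreted growth factor known from myeloid cells, was one of several genes with a low MRflox group at 2 months. It read 0.24, 0.45, 0.04 and −0.01 in MRflox and 1.53, 1.70, 1.30 and 1.66 in cardioMRKO, a difference of 1.36 (SE 0.13, adjusted p = 8.1e-05). Its MRflox hearts of 2 months were also below both groups of 1 month, whose means were 1.64 in MRflox and 1.16 in cardioMRKO. Tgds, a nucleotide-sugar dehydratase, was 1.06 higher (SE 0.14) and Serpinb6d, a serine protease inhibitor, 1.36 higher (SE 0.19), and both had this pattern of a low MRflox group at 2 months. Their MRflox means were −2.46 and −3.05 at 2 months and −1.21 and −2.39 at 1 month.

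The remaining named genes that were higher in both fits rest on 1 probe or on probes that disagree. The zinc finger gene Zfp946 was 1.37 higher (SE 0.20) by its only probe. Zfp820, another zinc finger gene, was 1.15 higher (SE 0.18) by the probe used and 0.17 and 0.00035 by the other 2. Ppp3r1, the regulatory subunit of the phosphatase calcineurin, was 1.25 higher (SE 0.23) by 1 probe and differed by −0.17 and 0.01 by the others. The calls of Zfp820 and Ppp3r1 were lost with the mean of their probes (adjusted p = 0.149 and 0.0934).

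Among the genes lower in both fits, Acsm5 and Maob encode mitochondrial enzymes. Acsm5, a mitochondrial enzyme that activates medium-chain fatty acids, read −2.10, −1.97, −2.19 and −1.69 in MRflox and −4.10, −3.82, −4.01 and −3.86 in cardioMRKO. Both groups were tight and the difference was −1.96 (SE 0.45, adjusted p = 0.0306, and 0.00547 with the 8 arrays alone). The 16-array fit takes in its cardioMRKO hearts of 1 month, which scattered and of which 2 were above background. Without MRflox replicate 1, 3 or 4 or cardioMRKO replicate 2, 3 or 4 its call was lost in that fit. Maob, the monoamine oxidase of the outer mitochondrial membrane that degrades amines such as dopamine and phenylethylamine, read 3.69, 3.49, 3.51 and 3.52 in MRflox and 2.80, 2.66, 2.57 and 2.79 in cardioMRKO. No heart of either group came near the other group, and the difference was −0.85 (SE 0.09, adjusted p = 0.00025).

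Kcnv2, a silent potassium channel subunit that modifies other channels, read −0.66, −0.93, −0.99 and −0.86 in MRflox and −2.39, −2.19, −2.40 and −1.72 in cardioMRKO, −1.32 apart (SE 0.21, adjusted p = 0.00352). Csdc2, an RNA-binding protein with a cold shock domain, read 1.19, 1.43, 0.99 and 1.95 in MRflox and 0.00, 0.16, −0.02 and −0.07 in cardioMRKO. Its MRflox hearts varied far more than its cardioMRKO hearts, and it was lower by −1.37 (SE 0.17, adjusted p = 0.000697). Whrn, the scaffold protein whirlin known from hair cells of the inner ear, lay between 3.18 and 3.37 in MRflox and between 2.33 and 2.69 in cardioMRKO, −0.76 apart (SE 0.10, adjusted p = 0.000801). These 3 genes are measured by 1 probe each.

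Cpne5, a calcium-dependent membrane-binding protein, was lower by −1.11 (SE 0.19), and by −0.40 without passing at its dim second probe. Ano10, a membrane protein of the anoctamin family, was lower by −0.90 (SE 0.13), whereas its second probe gave 0.30. Prm1, which encodes a protamine of sperm chromatin, was lower by −1.35 (SE 0.22) and its second probe gave −0.25, and Vwa5b2 was lower by −0.91 (SE 0.15) by its only probe. The calls of Cpne5, Ano10 and Prm1 were lost with the mean of their probes (adjusted p = 0.111, 0.166 and 0.187). Fewer than 12 named genes fell in both fits, so the homeobox gene Evx2 (−2.67, SE 0.69) and the forkhead gene Foxq1 (−2.59, SE 0.60) were added from the 16-array fit alone. Neither passed with the 8 arrays (adjusted p = 0.127 and 0.118), and their calls were lost on leaving out any 1 of 6 and of 5 of the 8 arrays.

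**Figure D2:**
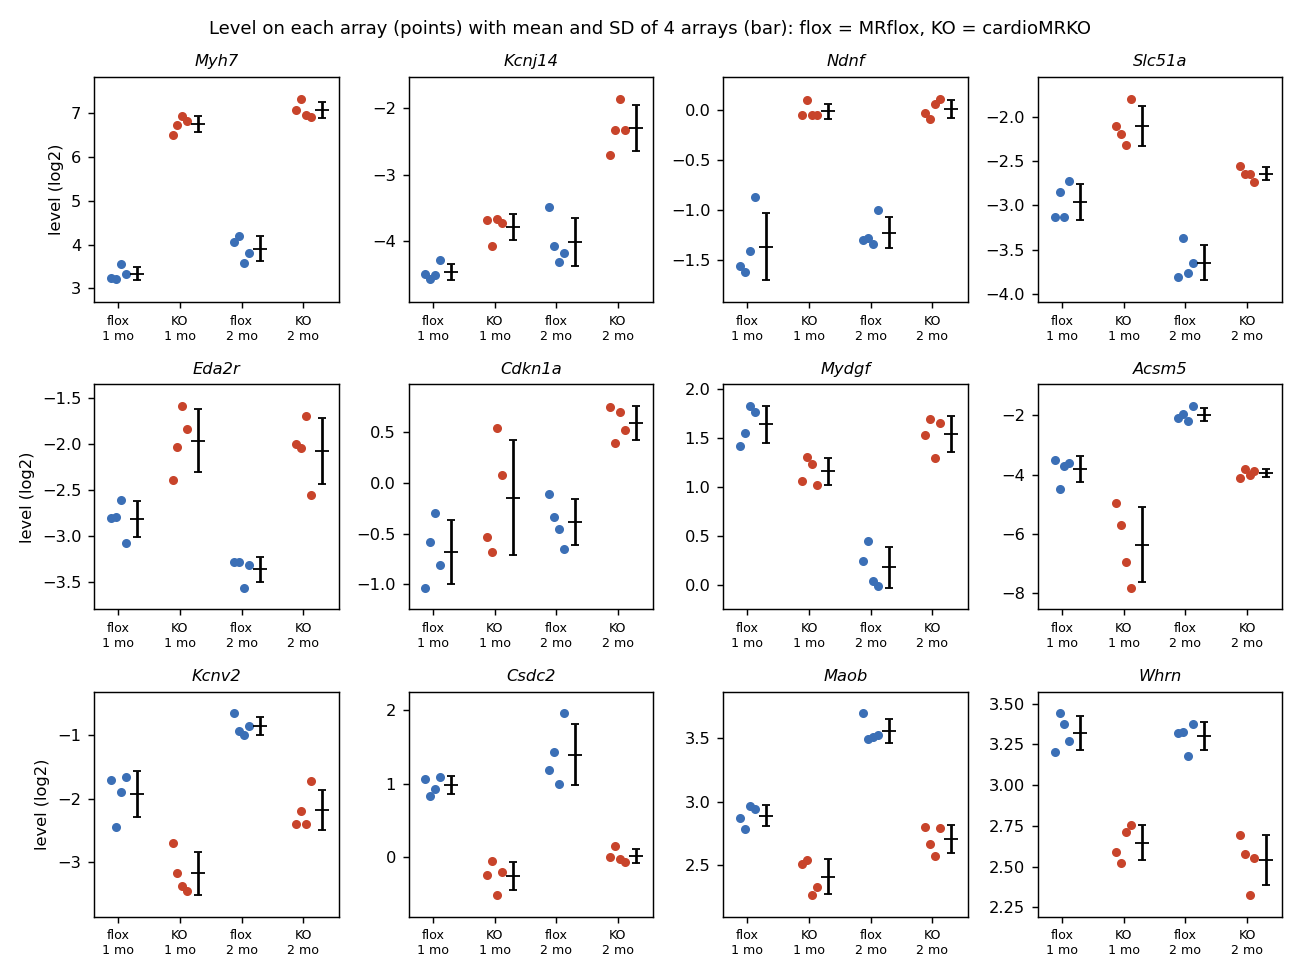
Levels (log2 relative to the 75th percentile of each array) of 12 genes called in both fits at 2 months, 1 point per heart, blue for MRflox and red for cardioMRKO, with the mean and SD of each 4 hearts beside the points. Whrn, Ndnf and Myh7 show like gaps at both ages, while Mydgf differs at 2 months with its MRflox hearts lowest, between −0.01 and 0.45.

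The hearts of 1 month are other animals and arrays, so they can be set beside the 2-month result. Their p-values, however, come from the 16-array fit, which takes 1 spread per gene from all 4 groups. A gene called at 2 months with a small spread then tends to have a smaller p at 1 month, so the shares by p below are not independent. At that age 19 of all genes (0.0947%) were called in the 16-array fit, and at an unadjusted p under 0.05 3.2% were higher and 2.72% lower in cardioMRKO. Of the 20 genes lower in both fits at 2 months, 11 (55.0%) were lower at 1 month with an unadjusted p under 0.05, against 3.23% of all genes with a 2-month difference below 0. Of the 70 genes higher in both fits, 12 (17.1%) were higher at 1 month in the same sense, against 4.05%. By direction alone 27 of the 70 (38.6%) were higher at 1 month, against 54.7% of all genes with a 2-month difference above 0. By direction alone 11 of the 20 lower genes (55.0%) were lower at 1 month, against 52.2% of all genes with a difference below 0. Among the named genes the 11 include Acsm5, Csdc2, Kcnv2, Cpne5, Ano10, Maob and Whrn, and the 12 include Myh7, Kcnj14, Ndnf, Eda2r, Slc51a and Cdkn1a. Across all genes the differences of the 2 ages were not correlated (Pearson r −0.059 and Spearman rho 0.055 over 20056 genes, which are not independent replicates).

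The change of the genotype difference from 1 to 2 months was itself tested in the 16-array fit. It passed for 152 genes (0.758%), 109 of them with a higher value at 2 months (0.543%) and 43 with a lower one (0.214%). They held 51 of the 70 genes higher in both fits and 7 of the 20 lower ones. This test contains the 2-month difference that chose those genes, so the counts are a description. Mydgf had a difference of −0.48 at 1 month and 1.36 at 2 months (adjusted p = 0.000478 for the change). Prm1 had 0.52 and −1.35 (adjusted p = 0.0132), and Vwa5b2 0.30 and −0.91 (adjusted p = 0.0154).

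The group that stood apart for most of these genes was MRflox at 2 months. The 70 genes higher in both fits had a mean level of −2.10 in MRflox and −2.14 in cardioMRKO at 1 month, and of −3.32 in MRflox and −1.68 in cardioMRKO at 2 months. For 63 of the 70 (90.0%) the 2-month MRflox mean lay outside the means of the other 3 groups, against 66.8% of all genes with a difference above 0, and for 50 (71.4%) the 2-month cardioMRKO mean did, against 40.2%. The 20 lower genes averaged −2.58 in MRflox and −3.02 in cardioMRKO at 1 month, and −1.12 and −2.63 at 2 months. For 18 of them (90.0%, against 70.8%) the 2-month MRflox mean was the outer one, and for 3 (15.0%, against 39.0%) the 2-month cardioMRKO mean. Since the genes were chosen by the 2-month difference, a 2-month group had to be outside more often than for other genes. Each group lay on its own slide, so the part of slide and of age in the MRflox level cannot be told apart.

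**Figure D3:**
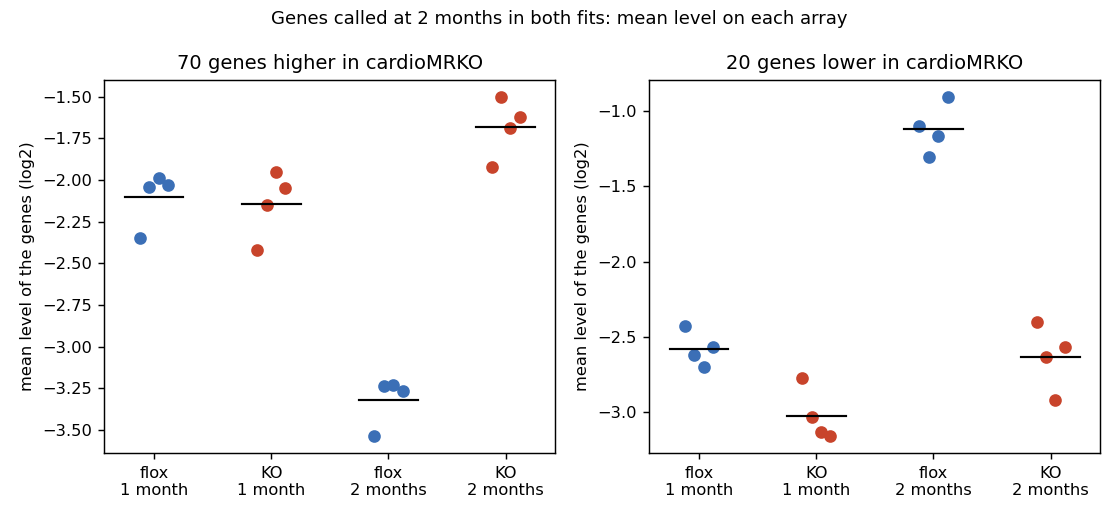
Mean level (log2) on each of the 16 arrays of the 70 genes higher and the 20 genes lower in cardioMRKO at 2 months in both fits; points are arrays and bars are group means. The 4 MRflox arrays of 2 months lie lowest for the 70 genes (−3.54 to −3.23) and highest for the 20 genes (−1.31 to −0.91).

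**Figure D4:**
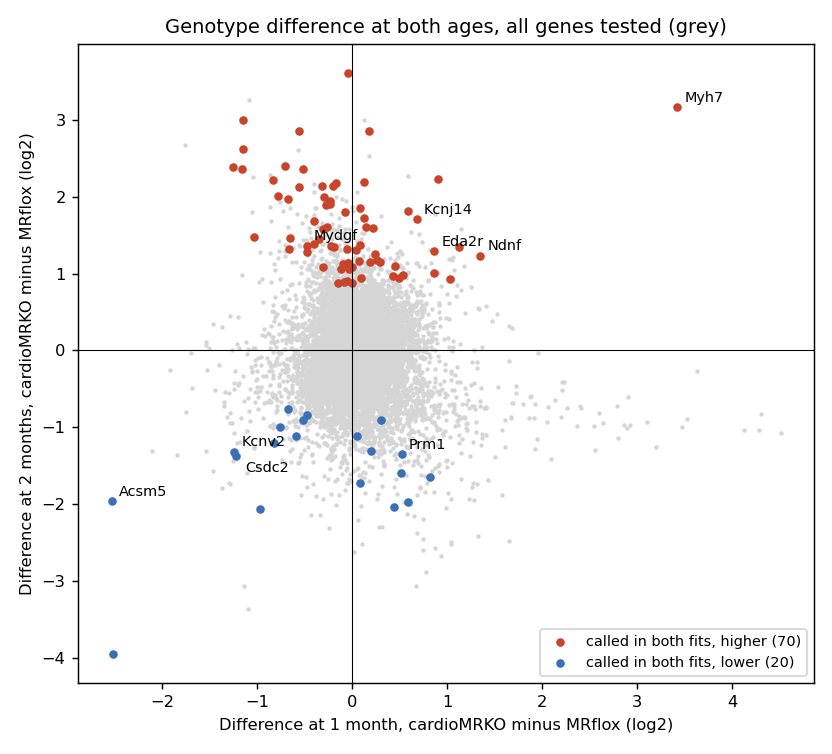
Genotype difference at 2 months (vertical axis, log2) against that at 1 month (horizontal axis, log2) for all genes tested (grey), with the 70 genes higher and 20 genes lower in both fits in colour. Myh7, Ndnf and Eda2r lie in the upper right and Acsm5, Csdc2 and Kcnv2 in the lower left, while most of the 70 higher genes lie near or left of 0 at 1 month.

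Gene lists for pathways of the heart are described by their counts in the 16-array fit and their median difference, beside 3.57% called and a median of −0.08 for all genes. The lists were chosen with earlier results of these data known, so their shares are a description and no independent support for a theme. Named list members were called in the 16-array fit only unless stated otherwise. Of the enzymes that take up and oxidise fatty acids, 35 of 41 had a difference below 0 and the median was −0.25; 3 were called lower (7.32%), none higher. Acot1, a thioesterase of long-chain acyl-CoA, read 3.17, 3.24, 3.59 and 3.93 in MRflox and 2.42, 2.48, 2.64 and 2.63 in cardioMRKO. No cardioMRKO heart reached the lowest MRflox heart, and the difference was −0.94 (SE 0.17, adjusted p = 0.00887, and 0.0822 with the 8 arrays). Cpt1b, the carnitine palmitoyltransferase that admits fatty acids to mitochondria, was lower by −0.57 (SE 0.11, adjusted p = 0.0104), while its second probe gave 0.0079. Hadh, the hydroxyacyl-CoA dehydrogenase of β-oxidation, was lower by −0.43 (SE 0.10, adjusted p = 0.0277), a call lost without MRflox replicate 3 or cardioMRKO replicate 4, with normexp background correction, quantile normalization or median scaling, and without the filter on dim probes. With quantile normalization 30 of the 41 were below 0 and the median was −0.11; with array weights it was −0.16. All 10 markers of fat cells, which also express genes of this list, had a difference below 0 as well (median −0.28). Their mean level was 3.05 to 3.88 in MRflox and 2.74 to 3.90 in cardioMRKO, and their part in the result was not tested.

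Acot1 and Hadh are shown with the 250 bases before their RefSeq start on GRCm38.p6, since both fell and both stretches hold 1 half-site, in capitals. Acot1 lies on the plus strand at chr12:84009252-84009501 and Hadh on the minus strand at chr3:131272102-131272351. Both matches read TGTTCT on the strand of the gene.
Acot1: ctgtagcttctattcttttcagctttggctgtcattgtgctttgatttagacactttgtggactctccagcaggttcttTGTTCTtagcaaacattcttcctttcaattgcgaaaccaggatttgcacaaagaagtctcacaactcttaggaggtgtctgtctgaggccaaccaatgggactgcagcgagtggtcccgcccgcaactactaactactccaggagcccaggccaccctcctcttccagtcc
Hadh: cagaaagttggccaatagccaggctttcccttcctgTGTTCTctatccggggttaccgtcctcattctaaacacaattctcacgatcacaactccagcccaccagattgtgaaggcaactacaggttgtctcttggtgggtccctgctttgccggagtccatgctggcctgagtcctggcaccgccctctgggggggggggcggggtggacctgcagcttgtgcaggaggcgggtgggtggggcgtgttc

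The other mitochondrial lists also had more members below 0 than above. The shift was not particular to them, since 61.8% of all genes were below 0. Of the genes of cholesterol and fatty acid synthesis 20 of 26 were below 0 (median −0.23), and of peptide hormones 20 of 25 (−0.25). Of ribosomal protein genes 31 of 39 were below 0 (−0.12), and of interferon response genes 25 of 31 (−0.17). Of the pyruvate dehydrogenase and citric acid cycle genes 27 of 33 were below 0, with a median of −0.22 and 2 called lower (6.06%). The median was −0.12 with array weights and −0.06 with quantile normalization, under which 21 of 33 were below 0. Ogdhl, a paralogue of the oxoglutarate dehydrogenase subunit, read −1.81, −1.49, −1.92 and −2.84 in MRflox and −3.05, −2.96, −3.96 and −3.33 in cardioMRKO, −1.31 apart (SE 0.26, adjusted p = 0.0145), with MRflox replicate 4 nearest to the knockout hearts. Idh3a, a subunit of isocitrate dehydrogenase, was lower by −0.44 (SE 0.10, adjusted p = 0.0246), a call lost without 5 of the 8 arrays in turn and with quantile normalization or median scaling. Of the genes of branched-chain amino acid and ketone body use, 20 of 23 were below 0 (median −0.22) and 3 were called (13.0%). Hibadh, of valine breakdown, lay between 5.51 and 5.63 in MRflox and between 5.07 and 5.19 in cardioMRKO, −0.42 apart (SE 0.07, adjusted p = 0.00764), a call lost with quantile normalization or median scaling. Bckdha and Bckdhb, both E1 subunits of the branched-chain ketoacid dehydrogenase, were lower by −0.56 (SE 0.12) and −0.44 (SE 0.11); their second probes gave −0.45 and −0.55. The call of Bckdha was lost without cardioMRKO replicate 3 and that of Bckdhb without 7 of the 8 arrays in turn and with either of those scalings.

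For oxidative phosphorylation the direction depended on 1 heart and on the scaling. In the 16-array fit 45 of 57 subunits were below 0 with a median of −0.18; none was called by limma, and 3 were higher and 11 lower at an unadjusted p under 0.05. Without cardioMRKO replicate 3 the median was −0.03 with 32 of 57 below 0, and with quantile normalization it was −0.0002 with 29 of 57 below 0. The mean level of the 57 subunits was 6.30 in cardioMRKO replicate 3 and 6.70 to 7.03 in the other 3 knockout hearts, against 6.74 to 6.91 in MRflox. Uqcrb, of complex III, had a difference of 0.84 (adjusted p = 0.0926) and Atp5b, of the ATP synthase, 0.56 with cardioMRKO replicate 3 missing (adjusted p = 0.0957), while its other 2 probes gave −0.11 and 0.26; Uqcrc1, also of complex III, had −0.34 (adjusted p = 0.0739). For mitochondrial protein synthesis and import 28 of 32 were below 0, with a median of −0.17, none called and 7 lower at an unadjusted p under 0.05. With quantile normalization 20 of 32 were below 0 and the median was −0.03; with array weights it was −0.08.

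Of the genes of glucose uptake and glycolysis 21 of 30 were below 0 (median −0.15, and 0.01 with quantile normalization) and 3 were called lower. Pfkfb1, a regulator of glycolytic flux, read 1.51, 0.94, 1.72 and 1.91 in MRflox and 0.41, −0.05, 0.05 and 0.65 in cardioMRKO, −1.26 apart (SE 0.29, adjusted p = 0.0298). The sugar transporter Slc2a12 was lower by −0.45 (SE 0.10, adjusted p = 0.0238) and Gapdh by −0.42 (SE 0.10, adjusted p = 0.0378). The second Gapdh probe gave −0.08. Leaving out 1 array ended the call of Pfkfb1 for 5 of the 8 arrays, of Slc2a12 for 3 and of Gapdh for 5; median scaling ended those of Slc2a12 and Gapdh, and quantile normalization that of Gapdh.

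**Figure D5:**
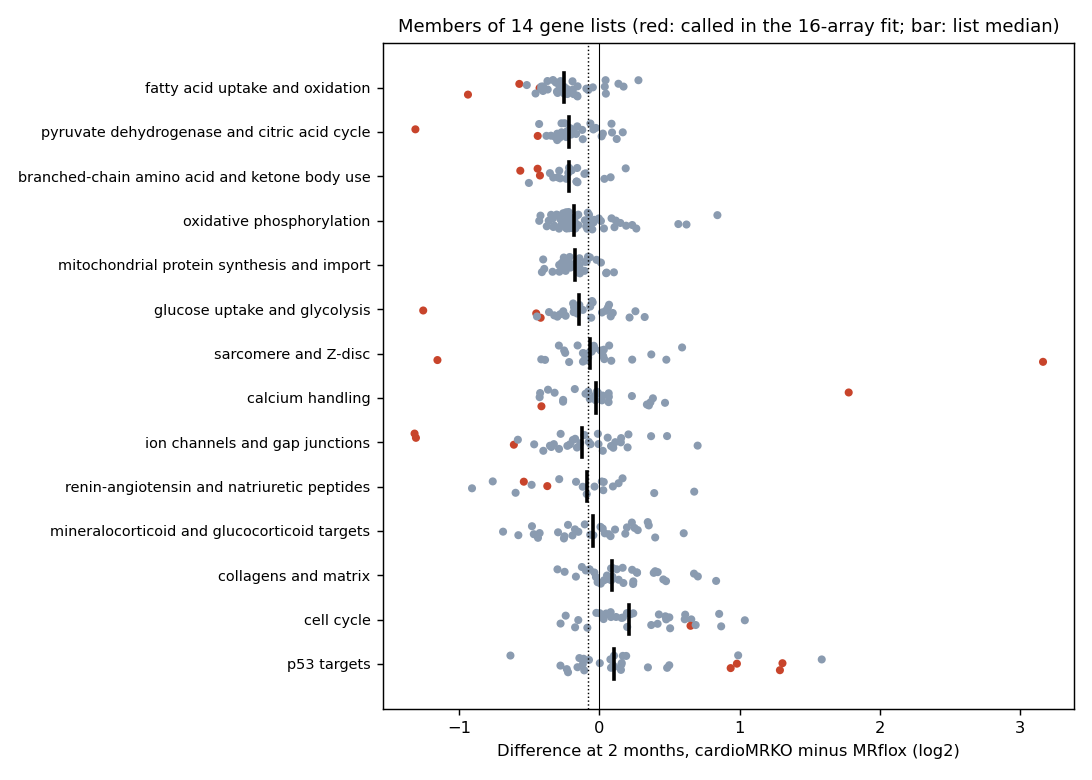
Difference between cardioMRKO and MRflox at 2 months (horizontal axis, log2) of the tested members of 14 gene lists, 1 point per gene, red where called in the 16-array fit; thick bars are list medians and the dotted line is the median of all genes, −0.08. Medians run from −0.25 for fatty acid uptake and oxidation to 0.21 for the cell cycle.

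In the main setting the lists of contractile and electrical genes had medians closer to 0 than the fatty acid list. In the sarcomere and Z-disc list 1 of 29 was higher (Myh7, in both fits) and 1 lower (6.9% called), with a median of −0.07. With quantile normalization 21 of the 29 were above 0 and the median was 0.11. Myot, the Z-disc protein myotilin, read 2.46, 1.87, 1.79 and 1.91 in MRflox and 1.00, 0.76, 0.49 and 1.16 in cardioMRKO. It was lower by −1.15 in hearts whose groups did not overlap (SE 0.17, adjusted p = 0.00225). Of 22 fetal and hypertrophy genes Myh7 alone was called (4.55%); Ankrd1, a stress-responsive repeat protein, had 0.62 (adjusted p = 0.09) and Actc1, cardiac α-actin, −0.39 (adjusted p = 0.0906). In calcium handling 2 of 28 were called (7.14%) and the median was −0.02. With quantile normalization 18 of the 28 were above 0 and the median was 0.16. Casq1, the calsequestrin of fast skeletal muscle, read −1.43, −1.78, −1.09 and −2.48 in MRflox and −0.06, 0.11, 0.70 and −0.41 in cardioMRKO, 1.78 higher (SE 0.26, adjusted p = 0.00226). Jph2, which joins the sarcoplasmic reticulum to the cell membrane, was lower by −0.41 (SE 0.08, adjusted p = 0.0113); its second probe gave −0.0022 and quantile normalization and median scaling ended the call.

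Of 34 ion channel and gap junction genes, 3 were called lower (8.82%) and none higher, with a median of −0.12: Kcnv2, described above, Gjd3, a connexin, by −1.31 (SE 0.28, adjusted p = 0.0229), and Kcnn2, a calcium-activated potassium channel, by −0.61 (SE 0.13, adjusted p = 0.0242). The second Kcnn2 probe gave −0.16, median scaling ended the Kcnn2 call, and the calls of Gjd3 and Kcnn2 were lost without MRflox replicate 1 or cardioMRKO replicate 3 or 4. With quantile normalization the median of the list was −0.03. Among 29 genes of adrenergic and muscarinic signalling the muscarinic receptor gene Chrm1 was called (3.45%), 2.67 higher, with 2 of 4 MRflox hearts above background. The Chrm1 call was lost with normexp background correction, and its difference ranged from 0.40 to 3.04 over the alternatives. Adrb1, the main β-adrenoceptor of the heart, had −0.69 without overlap of the groups but did not pass (adjusted p = 0.0762). The second Adrb1 probe gave −0.14.

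In the renin-angiotensin and natriuretic peptide list 2 of 19 were called lower (10.5%). Furin, a protease that processes precursors of natriuretic peptides, lay between 3.68 and 3.88 in MRflox and between 3.33 and 3.52 in cardioMRKO, −0.37 apart (SE 0.08, adjusted p = 0.0229), a call lost without MRflox replicate 1 or cardioMRKO replicate 2, with quantile normalization or with median scaling. Agt, the angiotensin precursor, read 0.10, 0.19, 0.33 and 0.11 in MRflox and −0.47, −0.20, −0.70 and −0.05 in cardioMRKO. It was lower by −0.54 (SE 0.14, adjusted p = 0.0475), a call lost without 7 of the 8 arrays in turn, and by −1.03 at 1 month (adjusted p = 0.00862). Of 31 genes known to respond to corticosteroids none was called at 2 months, 15 were above 0 and the median was −0.04. Among these Bcl6 had −0.47 (adjusted p = 0.156), Nfkbia 0.60 (adjusted p = 0.19) and Edn1, endothelin, −0.43 (adjusted p = 0.176). At an unadjusted p under 0.05 1 of the 31 was higher and 2 were lower. Hsd11b1, which regenerates active glucocorticoid, had −0.67 with groups that did not overlap and did not pass (adjusted p = 0.14).

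Of 30 p53 target genes 20 were above 0, the median was 0.11 and 4 were called higher (13.3%), with none lower. Earlier results were known when this list was chosen, so its share is a description. Eda2r and Cdkn1a are described above, and the call of Cdkn1a was lost on leaving out any 1 of the 8 arrays. Polk, a DNA polymerase that copies past damaged bases, read −3.30, −2.74, −2.84 and −3.20 in MRflox and −2.13, −2.10, −1.89 and −2.22 in cardioMRKO, 0.94 higher (SE 0.13, adjusted p = 0.00174). Gtse1, a mitotic protein that restrains p53, was 1.31 higher (SE 0.25, adjusted p = 0.0127) with 1 of 4 MRflox and 3 of 4 cardioMRKO hearts above background, and its difference was −0.11 with another background correction (normexp). In the DNA damage list 2 of 34 were called (5.88%), Polk among them. The list added Ddias, 2.23 higher and called in both fits, with 2 of 4 MRflox hearts above background. Its call was lost with normexp correction (limma adjusted p = 0.0772), and its difference ranged from 0.35 to 2.42 over the alternatives. In the cell cycle list 28 of 34 were above 0 and the median was 0.21, with 1 called (2.94%). The median was 0.10, with 22 of 34 above 0, with normexp correction, and 0.34 without the 2 arrays of low spike-in signal. Leaving out cardioMRKO replicate 4 gave 0.10 and leaving out cardioMRKO replicate 2 gave 0.42. The mean level of the list was −1.53 to −1.29 in MRflox and −1.52 to −1.08 in 3 cardioMRKO hearts, and −0.65 in cardioMRKO replicate 4, where B and T cell markers were also highest (−0.33 and −1.46). The part of these cells in the list was not tested. Cenpf, a kinetochore protein, read 1.21, 1.12, 1.30 and 1.42 in MRflox and 1.80, 1.86, 1.87 and 2.11 in cardioMRKO; it was called, 0.65 higher (SE 0.13, adjusted p = 0.0127) and 0.76 by its second probe. The topoisomerase gene Top2a had 0.87 and did not pass (adjusted p = 0.149).

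Matrix genes were not called. Of 38 genes of collagens and matrix 28 were above 0, with a median of 0.09 (0.21 with quantile normalization), 2 higher and none lower at an unadjusted p under 0.05; Col15a1 had 0.42 (adjusted p = 0.083). In further lists 1 or 2 members were called. The share was 4.76% of 21 chaperone genes, 3.45% of 29 cell death genes and 3.33% of 30 oxidative stress genes. It was 3.85% of 26 autophagy genes and 2.7% of 37 cytokine and chemokine genes. These shares are near the 3.57% of all genes, so the calls are no result about the lists. Of 25 peptide hormone genes 8.0% were called. Hspa8, a constitutive chaperone, was 0.87 higher (adjusted p = 0.0391), but its second probe gave −0.03. Bcl2, which restrains cell death, was 0.70 higher (adjusted p = 0.0054), and 0.61 without passing by its second probe. The Bcl2 call was lost with the mean of its probes. The peroxiredoxin Prdx3 was lower by −0.40 (adjusted p = 0.0469), the autophagy protein gene Map1lc3b by −0.42 (adjusted p = 0.0431) and the adhesion molecule gene Selp by −0.60 (adjusted p = 0.0419). The peptide gene Cck was 0.62 higher by 1 probe (adjusted p = 0.0362), while the other gave −1.78. Rln3, of the same list and a relaxin family peptide, was 1.48 higher with 3 of 4 MRflox hearts above background (adjusted p = 0.00564). The Rln3 call was lost with normexp correction, and its difference ranged from 0.31 to 1.62 over the alternatives. Leaving out 1 array ended the calls of Hspa8, Prdx3 and Selp for 6 of the 8 arrays, of Map1lc3b for 5 and of Cck for 7, and median scaling ended those of Hspa8, Prdx3, Selp and Map1lc3b. The interferon-induced gene Ifi44 had 1.69 and did not pass (adjusted p = 0.0719), and none of the 31 interferon response genes was called, with 1 higher and 1 lower at an unadjusted p under 0.05.

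Markers of the tissue and of other cell types were read on the same arrays. The 10 markers of ventricular cardiomyocytes averaged 6.05 to 6.19 in MRflox and 5.91 to 6.30 in cardioMRKO, with no member called by limma and 4 lower at an unadjusted p under 0.05. Markers of endothelial cells, fibroblasts, smooth muscle, B cells, T cells, macrophages, neutrophils, red cells and fat cells had no called member, and at an unadjusted p under 0.05 only 2 endothelial and 2 macrophage markers were lower. All 7 neutrophil markers (median −0.81) and all 5 red cell markers (median −1.18) nevertheless had a difference below 0, as did the fat cell markers. Without the 2 arrays of low spike-in signal 6 of the 7 neutrophil markers were above 0 and 4 of the 5 red cell markers below. Several of the lists varied between hearts of 1 group. The surfactant gene Sftpc, of lung epithelium, read −1.22, 3.46, −4.13 and 6.31 in MRflox and −3.73, 2.94, −4.73 and −3.49 in cardioMRKO. The mean of 10 lung markers was 1.62 to 4.09 in MRflox and −0.15 to 2.25 in cardioMRKO. Of these markers 9 had a difference below 0 (median of the 10 −0.95). The exception was Lamp3, which was 0.76 higher and the only lung marker called. Of the 10, 6 were above 0 without the 2 arrays of low spike-in signal (median 0.04), so the direction of the list depended on these arrays. With the lung marker mean as a covariate 461 genes were called, 240 higher and 221 lower, and Myh7, Kcnj14, Ndnf, Eda2r, Maob, Csdc2, Kcnv2 and Whrn kept their calls. Red cell markers averaged 4.2 and 3.58 in MRflox replicates 3 and 4 and 1.39 to 2.26 in the other 6 hearts, and platelet markers averaged −3.39 in cardioMRKO replicate 3. All 10 platelet markers had a difference below 0 (median −0.49), but 8 of the 10 were above 0 without that array (median 0.24) and with array weights (median 0.13). T cell markers were highest in cardioMRKO replicate 4, at −1.46 against −4.06 to −3.00 elsewhere. The part of red cells, platelets and T cells in the genotype difference was not tested.

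Skeletal muscle markers averaged 1.83 in MRflox replicate 3 and 1.38 in cardioMRKO replicate 4, and −1.15 to −0.69 in the other 6 hearts. Of 11 such markers Myh4, a fast skeletal myosin, was called higher; it read 4.75, 5.42, 5.68 and 5.16 in MRflox and 6.29, 6.87, 6.31 and 6.45 in cardioMRKO, 1.23 apart (SE 0.20, adjusted p = 0.0048). The part of skeletal muscle signal in this difference was not tested. Myosin heavy chain genes are close paralogues, and whether these probes tell them apart was not tested.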

How the data were processed

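Per the file headers the arrays were read with Agilent Feature Extraction 12.0.0.7, whereas version 9.5 is named in the submitters' processing notes. The deposited processed signal is an intensity on a linear scale, background-subtracted within the array per the file headers; the deposited series matrix holds the same intensity. Spots of a probe were averaged and outlier spots left out. The log2 signal was scaled to the 75th percentile of each array, control probes left out. Of 41174 probes the 27278 well above background on all 4 arrays of a group were kept, and the brightest probe stood for a gene. Probes were named through RefSeq accessions (28223 with a symbol). limma 3.58.1 in R 4.3.3 (lmFit, eBayes) gave two-sided tests with 12 residual degrees of freedom for 16 arrays and 6 for 8, adjusted by Benjamini-Hochberg over 20056 genes and called under 0.05. The fit was tested on simulated data, and no outcome of that test is given here. It is therefore no evidence that a shared spread per gene suits groups of unequal spread. The number of arrays limits the precision. Alternatives were another background correction, scaling, filter or probe rule, array weights, a lung covariate, a replicate block and leaving out arrays.

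The comparison, the lists and the rules were chosen with earlier results of these data known. Named were Nr3c2 and Nr3c1; per direction up to 12 genes with a symbol, by size, called in both fits, above background on all 8 arrays and without overlap of the groups, places left going to genes of the 16-array fit; called list members, up to 6, otherwise up to 4 by p; and up to 5 genes per direction whose genotype difference changed with age. Same-numbered hearts deviated together at some numbers and not at others (correlations 0.359, 0.284, −0.313 and 0.122), which does not settle whether the numbers pair hearts. The number is also the position on the slide. The main fits did not use the numbers. Some genes that these rules name are not reported here. Labels do not say whether hearts of a group shared a litter.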

Additional observations from a re-analysis of the deposited data

Results flagged for a closer look

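Among 173 groups of 4 hearts examined for the named genes, 7 held 1 array far from the other 3, at a threshold that chance passes in about 1 group of 20. MRflox replicate 4 stood apart for Atp5b (6.78, the others 7.12 to 7.19), Atp5d (6.68, the others 6.07 to 6.16) and Selp (−2.60, the others −2.91 to −2.90), and MRflox replicate 3 for Eda2r (−3.56, the others −3.31 to −3.28). Replicate 3 of cardioMRKO stood apart for Prm1 (−3.15, the others −2.46 to −2.34) and Bgn, a matrix proteoglycan (1.63, the others 0.73 to 0.88). Replicate 2 of cardioMRKO stood apart for Sftpc (2.94, the others −4.73 to −3.49).

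For 17 named genes the genotype difference itself changed between the ages (limma adjusted p under 0.05), given here as the 2-month minus the 1-month difference. The change was upward for Mydgf (1.84), Serpinb6d (1.58), Tgds (1.18), Polk (0.98) and Lamp3, a lysosomal membrane protein gene of lung epithelium (0.86). The skeletal muscle myosin genes Myh8 (2.01) and Myh4 (1.63) were among them. Chrm1 (4.43), Rln3 (1.71) and the olfactory receptor gene Olfr1153 (2.25) changed upward as well. The change was downward for Prm1 (−1.87), Vwa5b2 (−1.21), the platelet glycoprotein gene Gp1bb (−3.55) and the epidermal gene Lce1j (−2.71). It was also downward for Artn, a neurotrophic factor gene (−3.44), Kiss1, which encodes kisspeptin (−2.46), and Cyp4a12b, a cytochrome P450 gene (−2.85). These genes passed the background filter only through MRflox at 2 months. They were above background on no MRflox heart of 1 month, so that their 1-month differences have no measured base. Artn and Kiss1 were above background on 1 of 4 cardioMRKO hearts of 2 months, so the sizes of their 2-month differences and of their changes are not measured either.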

How the results depend on the processing

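The counts of genes called at 2 months depended on the arrays and on the spread. Against 716 in the main setting, the 8 arrays alone gave 96 (76% higher), array weights on these 8, chosen after seeing the data, 464 (306 higher, 158 lower), no filter on dim probes 445, the lung marker covariate 461, and leaving out the 2 arrays of low spike-in signal 422 (71.3% higher). Leaving out 1 array gave 309 to 880 calls: 309, 391 and 469 without MRflox replicates 1, 3 and 4, and 326, 361 and 360 without cardioMRKO replicates 2, 3 and 4. Of all calls 43.9% were higher in the main setting, 27.1% with normexp correction (809 calls) and 63.7% with array weights (721). For the change between ages, 152 in the main setting, the count was 99 with normexp, 96 without the filter, 488 with array weights and 48 with the lung covariate, and 71 to 265 on leaving out 1 array (94 without MRflox replicate 1, and 265, 71 and 93 without cardioMRKO replicates 1, 2 and 4). With a replicate block, by numbers that are also slide positions and may or may not pair hearts, the counts were 1039 and 462. Nr3c2 ranged from −0.50 to −0.22 over 21 alternatives and passed in none. Of the 23 named genes called in both fits, 21 kept the call without each array in turn, Cdkn1a and Acsm5 being the exceptions; of 38 called in the 16-array fit only, 18 did. Signs turned for Nr3c1 (0.20), Grk2, a receptor kinase (0.15), and Cck (−0.58) with the mean of their probes, and for Gtse1 (−0.11) with normexp; the cause was not tested. Signal near background limits Chrm1, Ddias, Gtse1, Rln3, Artn and Kiss1.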
